A study of Mus musculus with 2 samples.

Results

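The mitochondrial ribosomal protein genes are the nuclear genes named *Mrpl* (large subunit) and *Mrps* (small subunit). Every gene of the count table whose symbol starts with Mrpl or Mrps was taken, apart from pseudogenes marked with -ps, which gave 77 of 27998 genes, 48 *Mrpl* and 29 *Mrps*. They were measured by single-cell RNA-seq in *MLL-AF9* acute myeloid leukemia, made by retroviral transduction of lineage-depleted mouse bone marrow (BM) with the fusion oncogene and transplantation into irradiated recipients. All donors were *Kat2a* Flox/Flox and received pIpC, which induces Mx1-Cre, 4 to 6 weeks before BM collection. *Kat2a* WT donors lacked Mx1-Cre and *Kat2a* KO donors were Mx1-Cre+/-. Donors were 6 to 10 weeks old per the study's methods. Mx1-Cre is switched on by interferon in many cell types. Kat2a is a histone acetyltransferase. Live YFP+ cells of terminal leukemias were pooled by genotype, 5 leukemias for WT and 4 for KO, into 1 10x Genomics library each.

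Mitochondrial ribosomes translate the few mRNAs of the mitochondrial genome, which encode core subunits of the respiratory chain and of ATP synthase. Their RNA parts come from mitochondrial DNA, while every protein part is encoded in the nucleus, made in the cytosol and imported. Some proteins have counterparts in bacterial ribosomes and others are found only in mitochondria, and dependence on mitochondrial translation is a known trait of acute myeloid leukemia cells.

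Cells with 500 or more detected genes were used, 3866 labelled WT with 11669427 unique molecular identifiers (UMIs, each standing for 1 captured transcript) and 3545 labelled KO with 7920256. A median cell held 2588.5 UMIs labelled WT and 1884 labelled KO, and 19 cell barcodes occurred among the kept cells of both libraries. *Kat2a* itself went against the labels, with 142 UMIs or 12.2 CPM in the library labelled WT and 759 UMIs or 95.8 CPM in the library labelled KO. CPM is the number of UMIs of a gene in every 1000000 UMIs of its library. A 3′ tag lies outside the excised part of the gene and does not check excision, so the libraries are called by their labels. With 1 library per genotype no difference could be tested, and all intervals are 95% exact intervals that cover counting error only, not the spread between leukemias. Myeloid markers were present, with 12 granulocyte markers at a summed 79926 CPM labelled WT and 77130 CPM labelled KO and none at 0. Markers of other cell types were far lower but unequal. The summed levels labelled WT and KO were 9.08 and 105 CPM for 3 megakaryocyte markers, mostly *Pf4*, and 167 and 439.8 CPM for 5 erythroid markers. They were 54.3 and 79.0 CPM for 5 B cell markers, of which 2 and 1 were at 0 and *Cd79b* alone gave 53.2 and 76.5 CPM. They were 197 and 318 CPM for 6 T or NK cell markers, of which 2 and 3 were at 0 and *Nkg7*, also a leading gene of primary-granule progenitor-like cells here, gave 196 and 317 CPM. The 3 stroma markers stood at 1.71 and 1.26 CPM, with 0 and 1 of them at 0. Their part in the results was not tested.

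Of the 77 members, 74 had 100 or more UMIs over both libraries, a limit that 7861 of all genes passed. *Mrpl53* with 11 UMIs in each library, *Mrps2* with 63 and 33 and *Mrps6* with 67 and 27 fell below it and are the 3 lowest members. By the structure of the mammalian mitochondrial ribosome 50 members belong to the large subunit, including *Mrps30* and *Mrps18a* in spite of their names, and 26 to the small subunit. *Mrps36* is a component of the 2-oxoglutarate dehydrogenase complex and not of the ribosome. A bacterial counterpart is known for 46 members, and 30 are specific to mitochondria. The members lie on 17 chromosomes in GRCm38, and only *Mrpl46* and *Mrps11* are neighbours within 10000 bp, transcribed away from each other. Their 5′ ends overlap by the GENCODE M21 positions, *Mrpl46* at chr7:78775236-78783531 on the minus strand and *Mrps11* at chr7:78783119-78792989 on the plus strand.

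RefSeq promoters (GRCm38.p6, from 250 bases before to 50 after the start) were at hand for 68 members, 74 promoters in all. The motif GCGCANGCG of NRF1, a factor known for nuclear genes of mitochondria, was present in 21.6% of member promoters, in 15.2% of promoters of genes with 100 or more UMIs and in 6.25% of all promoters of the same length. The ETS motif CCGGAAG, bound by GABPA, was present in 33.8%, 20.6% and 8.86% of the same 3 sets, and ATGGCGG of YY1 in 17.6%, 9.29% and 4.05%. The other motifs searched were CACGTG (E-box) in 9.46%, 10.7% and 7.15%, GGGCGG (SP1) in 52.7%, 63.5% and 35.7%, CCAAT in 40.5%, 38.3% and 37.4% and TATAAA in 6.76%, 6.67% and 13.6%. Both strands were searched, matches of different motifs may overlap, and 35 of the 68 members held NRF1 or ETS letters, 6 of them both. A match describes the letters and is not a binding site.

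Promoters of 5 members are shown because the results turn on their genes, and they were chosen with the values known. Capitals mark NRF1, ETS, YY1 and E-box letters. *Mrpl12*, the member that followed the sum of the others most closely across cell states, holds NRF1 letters. *Mrpl18*, a member with high ratios in cycling cells of both libraries, holds ETS letters. *Mrpl52*, the member that departed most in granulocyte-like and mitotic-like cells, holds ETS letters at 2 places. *Mrpl46* and *Mrps11* are the divergent pair, whose windows overlap on opposite strands. The windows follow RefSeq starts, and that of *Mrpl46* lies inside its gene by the GENCODE positions given above.
Mrpl12 (GRCm38.p6, chr11:120484387-120484686, plus strand): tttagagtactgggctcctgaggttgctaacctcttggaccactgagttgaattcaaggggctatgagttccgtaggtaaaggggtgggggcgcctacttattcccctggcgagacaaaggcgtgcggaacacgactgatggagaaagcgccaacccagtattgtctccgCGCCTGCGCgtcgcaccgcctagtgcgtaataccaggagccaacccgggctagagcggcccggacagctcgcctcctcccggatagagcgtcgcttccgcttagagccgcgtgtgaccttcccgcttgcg
Mrpl18 (GRCm38.p6, chr17:12916042-12916341, minus strand): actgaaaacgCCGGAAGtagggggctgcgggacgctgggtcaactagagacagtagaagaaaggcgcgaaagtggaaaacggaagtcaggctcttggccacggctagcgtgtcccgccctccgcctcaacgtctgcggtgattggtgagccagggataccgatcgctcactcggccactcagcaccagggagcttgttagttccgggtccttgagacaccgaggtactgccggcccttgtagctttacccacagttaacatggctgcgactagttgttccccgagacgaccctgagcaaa
Mrpl52 (GRCm38.p6, chr14:54426659-54426958, plus strand): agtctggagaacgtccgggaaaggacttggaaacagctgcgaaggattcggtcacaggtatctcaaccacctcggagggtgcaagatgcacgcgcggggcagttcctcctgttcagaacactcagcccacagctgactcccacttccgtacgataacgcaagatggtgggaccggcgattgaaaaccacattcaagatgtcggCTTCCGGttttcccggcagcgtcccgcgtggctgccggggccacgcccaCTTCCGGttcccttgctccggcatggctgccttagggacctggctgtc
Mrpl46 (GRCm38.p6, chr7:78783040-78783339, minus strand): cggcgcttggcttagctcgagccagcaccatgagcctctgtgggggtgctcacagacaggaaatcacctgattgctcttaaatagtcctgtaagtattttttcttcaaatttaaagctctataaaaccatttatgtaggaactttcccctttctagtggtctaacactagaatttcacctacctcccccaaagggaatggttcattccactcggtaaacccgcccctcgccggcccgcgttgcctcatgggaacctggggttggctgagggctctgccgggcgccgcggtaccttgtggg
Mrps11 (GRCm38.p6, chr7:78782881-78783180, plus strand): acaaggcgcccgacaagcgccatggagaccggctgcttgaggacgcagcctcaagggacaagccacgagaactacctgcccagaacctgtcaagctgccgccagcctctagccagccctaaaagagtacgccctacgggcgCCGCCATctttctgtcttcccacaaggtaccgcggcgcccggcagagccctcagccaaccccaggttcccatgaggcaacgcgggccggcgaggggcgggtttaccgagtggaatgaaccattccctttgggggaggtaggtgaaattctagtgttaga

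The members were slightly higher in the library labelled KO. They summed to 83837 UMIs in the library labelled WT, 7184 CPM (7136 to 7233), and to 63455 UMIs in the library labelled KO, 8012 CPM (7950 to 8074). The log2 ratio of labelled KO over labelled WT was 0.16 (0.14 to 0.17), a 1.12-fold difference. The large-subunit names stood at 4680 and 5144 CPM, a log2 ratio of 0.14, and the small-subunit names at 2505 and 2868 CPM, a log2 ratio of 0.20. Members with a bacterial counterpart had a log2 ratio of 0.14 for the sum and mitochondria-specific members 0.20. In 2772 cells per library matched on total UMIs the log2 ratio of all members was 0.28, and in cells with 1000 or more genes it was 0.24. In cells that held no UMI of a cell cycle marker after thinning it was 0.21. Other settings lowered it, to 0.12 with every deposited cell and 0.13 without the 5% of cells with most UMIs. Without mitochondrially encoded and cytosolic ribosomal protein genes in the total it was 0.11.

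Gene by gene, 58 of the 74 members had a higher CPM in the library labelled KO and 16 a lower one, and the median log2 ratio was 0.18. Of all 7861 genes 49.8% were higher and the median was -0.00177. Among the 3094 other genes at 30 to 300 CPM, where most members lie, 57.6% were higher and the median was 0.05. A log2 ratio of 0.32 or more in either direction was called, and 11 members were called higher while 17.1% of all genes were. No member was called lower, while 21.6% of all genes were. Of the other genes at 30 to 300 CPM, 17.9% were called higher and 13.7% lower. The share of members past the fold upward was near that of all genes, and most upward ratios were small. The count past the fold depended on the cells used: it was 25 in cells with 1000 or more genes, beside 19.7% of all genes, with 0 lower beside 22.8%. At equal depth it was 24, beside 22.9%, with 3 lower beside 24.7%. Matching the cells on total UMIs gave 36, beside 24.2%, with 1 lower beside 24%.

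**Figure D1:**
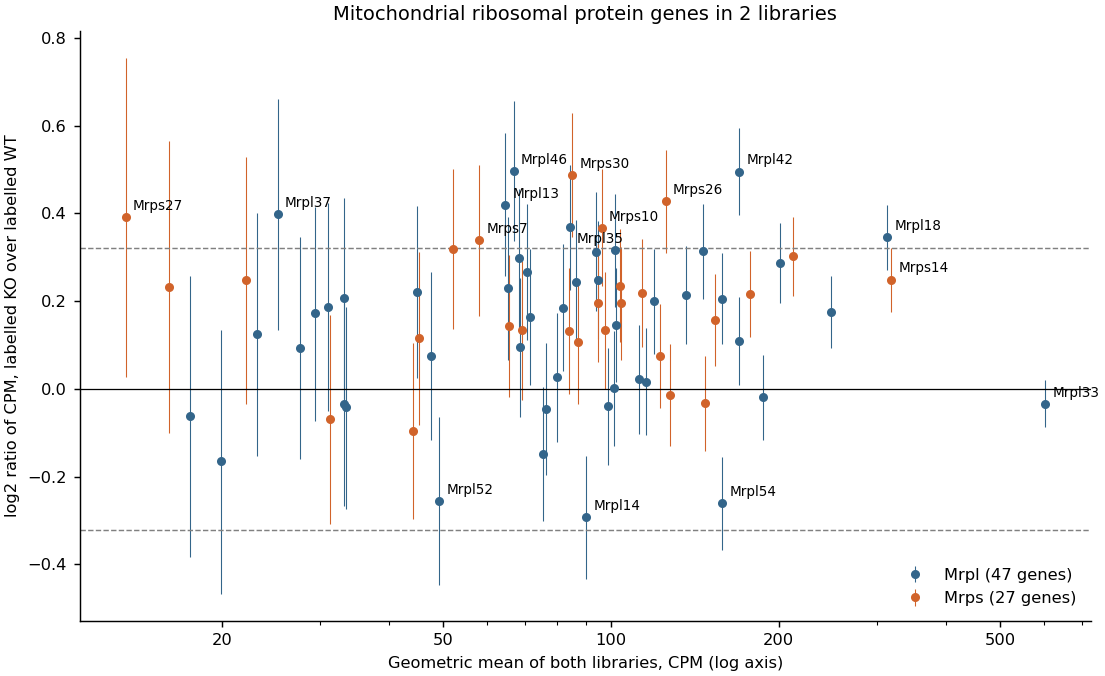
Each point is 1 of the 74 members with 100 or more UMIs, with the geometric mean of its CPM in both libraries on a log axis and the log2 ratio of CPM, labelled KO over labelled WT, with its 95% counting interval. Dashed lines mark the log2 ratio of 0.32 in each direction. The 11 called members lie above the upper line and none below the lower one.

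*Mrpl46* and *Mrpl42* had the highest ratios. *Mrpl46*, a mitochondria-specific protein of the large subunit, stood at 56.3 CPM labelled WT and 79.4 CPM labelled KO, a log2 ratio of 0.50 (0.34 to 0.66). *Mrpl42*, also specific to mitochondria, stood at 143 and 202 CPM, a log2 ratio of 0.50 (0.40 to 0.60). The counting intervals of both libraries lay apart for each gene. *Mrps11*, the divergent neighbour of *Mrpl46*, stood at 62.4 and 68.9 CPM, a log2 ratio of 0.14 (-0.02 to 0.31), so the pair did not share the size of the difference. *Mrps30*, a large-subunit protein in spite of its name, stood at 72.0 and 100.9 CPM, a log2 ratio of 0.49. *Mrps26*, a small-subunit protein found only in mitochondria, stood at 108 and 145 CPM, a log2 ratio of 0.43, and was higher in the library labelled KO in 12 of 12 cell clusters. The other called members were *Mrpl13* at 0.42, *Mrpl37* at 0.40, *Mrps27* at 0.39, *Mrpl35* and *Mrps10* each at 0.37, *Mrpl18* at 0.35 and *Mrps7* at 0.34 on the same log2 scale. *Mrpl13*, *Mrpl18*, *Mrpl35*, *Mrps7* and *Mrps10* have bacterial counterparts, while *Mrpl37* and *Mrps27* do not. The number of clusters in which a called member was higher labelled KO was lowest for *Mrps10*, 6 of 12, and *Mrps27*, 8 of 12. At equal depth *Mrpl37* at 0.09 (-0.37 to 0.55), *Mrps10* at 0.18 (-0.07 to 0.42), *Mrpl35* at 0.27 and *Mrps7* at 0.29 were below the called fold.

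At the other end, *Mrpl14*, a large-subunit protein with a bacterial counterpart, stood at 99.9 CPM labelled WT and 81.6 CPM labelled KO, a log2 ratio of -0.29 (-0.43 to -0.15). *Mrpl54* stood at 173 and 145 CPM, a log2 ratio of -0.26 (-0.37 to -0.16), and *Mrpl52* at 53.6 and 44.9 CPM, a log2 ratio of -0.26 (-0.45 to -0.07). These are the members with intervals below 0 among the 74. In cells with 1000 or more genes *Mrpl54* was at -0.04 and *Mrpl52* at -0.08, with intervals that reached above 0. The next 7, *Mrpl1* at -0.16, *Mrpl19* at -0.15, *Mrps35* at -0.10, *Mrps5* at -0.07, *Mrpl47* at -0.06, *Mrpl41* at -0.05 and *Mrpl10* at -0.04, had intervals that reached above 0. In cells matched on total UMIs *Mrps5* was at 0.42 (0.13 to 0.72), so its direction turned.

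The order of the members by level was nearly the same in both libraries. *Mrpl33*, a large-subunit protein with a bacterial counterpart, was the highest at 609 CPM (595 to 623) labelled WT and 595 CPM (578 to 612) labelled KO, and its intervals overlap. *Mrps14* followed at 292 and 348 CPM and *Mrpl18* at 278 and 353 CPM, and the intervals of this pair overlapped in each library. *Mrpl57* stood at 234 and 264 CPM and *Mrps33* at 191 and 235 CPM. These 5 genes gave 22.3% of member UMIs labelled WT and 22.4% labelled KO. The median member stood at 79.8 and 92.4 CPM, and 54 of the 77 members were detected in 10% or more of the cells of each library. *Mrpl33* had a UMI in 70.2% of cells labelled WT and 59.9% labelled KO, and the cells labelled KO were shallower.

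Other genes of mitochondrial translation were grouped by role. Beside the called counts of these lists, 17.1% of all genes were called higher and 21.6% lower. In a list of 7 genes with other names, *Chchd1* and *Aurkaip1*, which encode mitochondrial ribosome proteins, had log2 ratios of 0.35 and 0.17, and *Ptcd3* had -0.12. *Hibch*, the gene called lower at -0.42, encodes an enzyme of valine breakdown that is not a protein of the mammalian mitochondrial ribosome, and 1 gene was called higher. Among 10 translation factors with enough UMIs none was called higher and 1 lower, with the release factor gene *Mtrf1l* at -1.05, *Tufm* at -0.30, *Mtif3* at 0.23 and *Tsfm* at 0.25. Of 17 assembly factors 2 were called higher, *Ddx28* at 0.45 and the helicase gene *Dhx30* at 0.34, and none lower, with *Mtg1* at -0.31 and *Trub2* at -0.30. Of 12 mitochondrial aminoacyl-tRNA synthetases, which charge tRNAs in the organelle, 3 were called higher, with *Sars2* at 0.80, and none lower, with *Iars2* at -0.19 and *Nars2* at -0.17. The list of 12 genes of mitochondrial transcription and RNA had none called higher and 2 lower, *Polg2* at -0.40 and *Elac2* at -0.37, with *Tefm* at 0.24 and *Tfb2m* at 0.20. Of these lists only the synthetases, with 25% of 12 genes called higher, lay above the share of all genes.

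The mRNAs that these ribosomes translate were also higher. Beside the called counts that follow, 17.1% of all genes were called higher and 21.6% lower. All 11 mitochondrially encoded mRNAs with enough UMIs were higher in the library labelled KO, 3 of them past the called fold, and their sum had a log2 ratio of 0.32. The range ran from *mt-Co2* at 0.06 and *mt-Co3* at 0.07 to *mt-Nd4* at 0.51 and *mt-Atp6*, a subunit of ATP synthase, at 0.61. The proteins of the cytosolic ribosome went the other way: 79 of 82 genes were lower, 37 of them past the called fold, and the log2 ratio of the sum was -0.29. Among regulators known to act on nuclear genes of mitochondria, *Gabpb1* at 0.48 and *Gabpa* at 0.33 were called higher and *Yy1* at -0.57 and *Gabpb2* at -0.88 lower, out of 7. The summed markers of the cell cycle were also higher, and their part in the level of the members was not tested. Of the 18 S phase markers, genes of DNA replication, 16 were higher, 9 were called higher and none lower, and the log2 ratio of the sum was 0.33. The 21 mitotic markers were divided, with 12 higher and 9 lower, 8 called higher and 5 called lower, and a log2 ratio of 0.31 for the sum. *Tipin* at 0.47 and *Cenpa* at 0.70 were the highest, *Hells* at -0.28 and *Mki67* at -1.37 the lowest.

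Variation between cells was compared at the depth of each cell and at equal depth. The CV of counts scaled to 10000 per cell, that is their standard deviation divided by their mean, had a median over the 74 members of 2.76 labelled WT and 3.25 labelled KO, and 65 members had the higher CV in the library labelled KO. Among all genes 86.8% did, and the cells of that library were shallower. Each cell was then thinned to 1000 UMIs, which left 3800 cells labelled WT and 3351 labelled KO. At this equal depth 36 of 74 members had the higher CV in the library labelled KO. Beside them stood 58.8% of all genes and 55.5% of the other genes at 30 to 300 CPM. The median log2 ratio of the members' CV was -0.0055. Their mean at equal depth was higher, with a median log2 ratio of 0.18 beside 0.01 for all genes. The part of this shift in the measures of variation was not tested. The cytosolic ribosomal protein genes had a median log2 CV ratio of 0.15, with 77 of 82 higher. Their mean at equal depth was lower, with a median log2 ratio of -0.24, and their variance over mean was higher for 57 of 82, 69.5%.

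**Figure D2:**
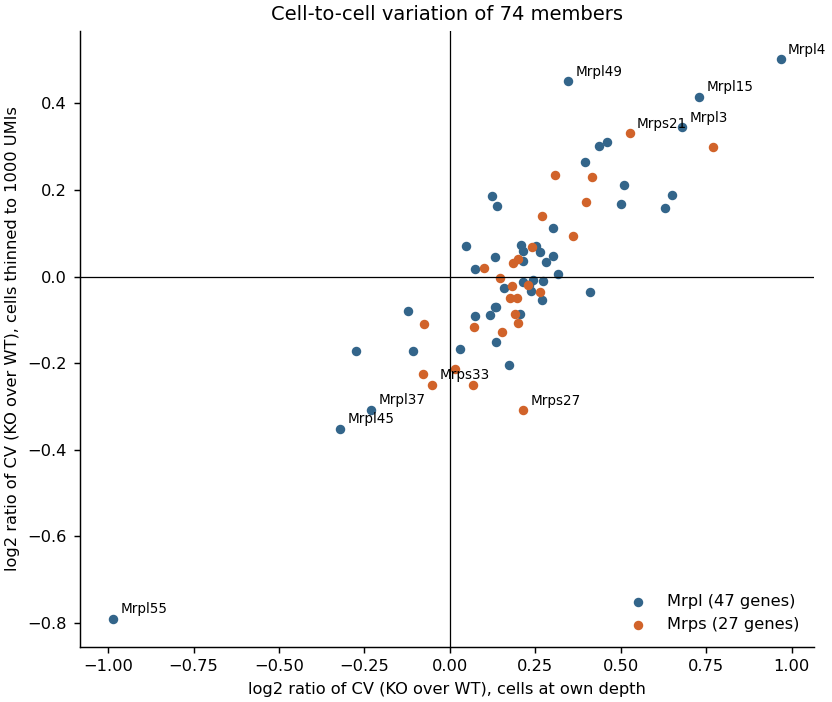
Each point is 1 of 74 members, with the log2 ratio of its CV (labelled KO over labelled WT) at the depth of each cell on the horizontal axis and with each cell thinned to 1000 UMIs on the vertical axis. Most points lie to the right of 0, 65 of 74, while 36 of 74 lie above 0 on the vertical axis.

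Variance over mean, which is 1 for counts that vary by sampling alone, had medians over members of 1.15 labelled WT and 1.29 labelled KO at equal depth. It was higher in the library labelled KO for 63 of 74 members, beside 68.5% of all genes and 73.8% of the other genes at 30 to 300 CPM. Single cells with many UMIs of 1 gene weighed on these values. Without the 10 cells of each library with the most UMIs of a gene the medians were 1.03 and 1.10, and 58 of 74 members were higher, beside 67.5% of all genes. The CV was then higher for 26 of 74 members, beside 56.5% of all genes, and the median log2 CV ratio was -0.05.

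Single cells weighed on members at both ends of the CV ratios, though not on all of them alike. *Mrpl55* had a CV of 7.21 labelled WT and 4.17 labelled KO at equal depth, a log2 ratio of -0.79, and 1 monocyte or macrophage-like cell labelled WT held 26 of its UMIs among 1267 in all. Without the 10 highest cells its log2 ratio was -0.16. *Mrpl4* had a CV of 4.49 and 6.35, a log2 ratio of 0.50, and 1 monocyte or macrophage-like cell labelled KO held 27 of its UMIs among 1217. Without the 10 highest cells its log2 ratio was -0.07, so the sign turned. The other low ratios were *Mrpl45* at -0.35, *Mrps27* and *Mrpl37* each at -0.31 and *Mrps33* at -0.25, and the other high ones *Mrpl49* at 0.45, *Mrpl15* at 0.41, *Mrpl3* at 0.34 and *Mrps21* at 0.33. Of the high ones *Mrpl49* at 0.27, *Mrps21* at 0.12 and *Mrpl15* at 0.08 stayed above 0 without the 10 highest cells, while *Mrpl3* was at -0.21. Of the low ones *Mrps33* was then at -0.19, *Mrpl45* at -0.12 and *Mrpl37* at -0.10, while *Mrps27* was lower still at -0.46. The mean of *Mrps27* at equal depth had a log2 ratio of 0.80. The highest variance over mean was found for *Mrpl55*, 3.05 labelled WT and 1.14 labelled KO, *Mrpl4*, 1.12 and 2.95, *Mrps18b*, 1.17 and 2.60, *Mrpl42*, 1.24 and 2.50, and *Mrpl3*, 1.05 and 2.53. For *Mrpl42*, 1 granulocyte-like cell labelled KO held 30 UMIs of 1314, and without the 10 highest cells its variance over mean was 1.03 and 1.10.

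Summed over all members, few cells were without any UMI. A cell thinned to 1000 UMIs held 6.59 member UMIs on average labelled WT (SD 3.44 over 3800 cells) and 7.42 labelled KO (SD 3.69 over 3351 cells). The variance over mean of the sum was 1.79 and 1.83, and within clusters it was 1.36 and 1.55. Differences between clusters made up 24.04% of the variance labelled WT and 15.2% labelled KO. No member UMI was found in 27 of 3800 cells labelled WT, 0.711% (0.469 to 1.03%), and in 10 of 3351 labelled KO, 0.298% (0.143 to 0.548%). Large-subunit and small-subunit sums of the same cell had a Pearson correlation of 0.18 labelled WT and 0.15 labelled KO, and of 0.06 and 0.08 within clusters. These correlations are over cells of 1 library that share their depth. The large-subunit and small-subunit sums averaged 4.32 and 2.28 UMIs per thinned cell labelled WT and 4.76 and 2.65 labelled KO. Sampling of so few UMIs lowers a correlation, so these values do not measure how closely the subunits vary together.

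**Figure D3:**
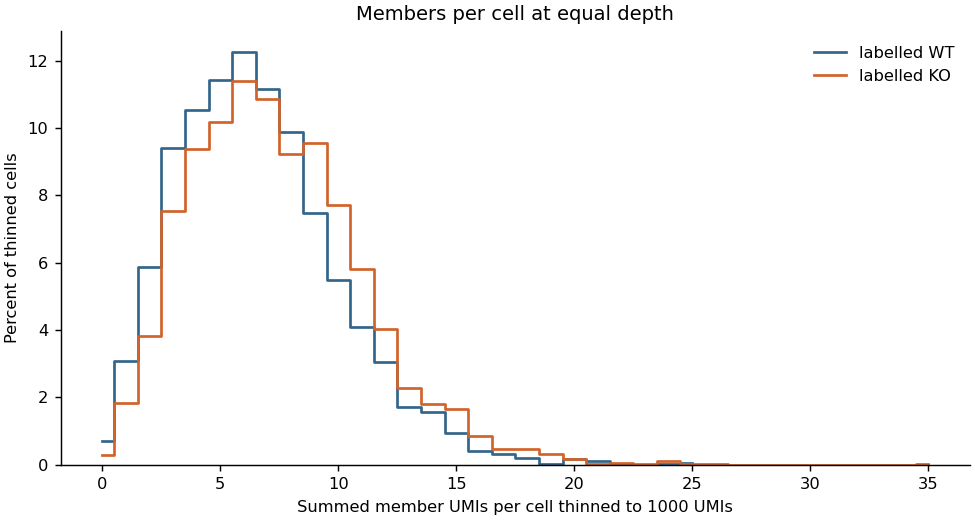
The horizontal axis is the summed UMIs of the 77 members in a cell thinned to 1000 UMIs and the vertical axis the percent of thinned cells, with 1 line per library. The line of the library labelled KO is shifted to the right, with means of 6.59 and 7.42, and both lines reach close to 0 cells at 0 UMIs.

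The level of the members varied more between cell states than between libraries. Cells were grouped into 12 clusters on other genes than the members, and names were given only where markers led. The summed level ran from 3924 to 9745 CPM over clusters labelled WT, a 2.48-fold range, and from 4460 to 11159 CPM labelled KO, a 2.50-fold range. The library labelled KO was higher in 12 of 12 clusters, with log2 ratios from 0.02 to 0.21, and the interval of the lowest, cluster 9, reached below 0. Deeper clusters tended to have higher levels, with a Pearson correlation of log2 level with log2 median UMIs of 0.76 labelled WT and 0.57 labelled KO over 12 clusters that share a library. After thinning the mean sums still ran from 4.01 to 9.53 UMIs labelled WT and from 4.40 to 10.6 labelled KO.

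**Figure D4:**
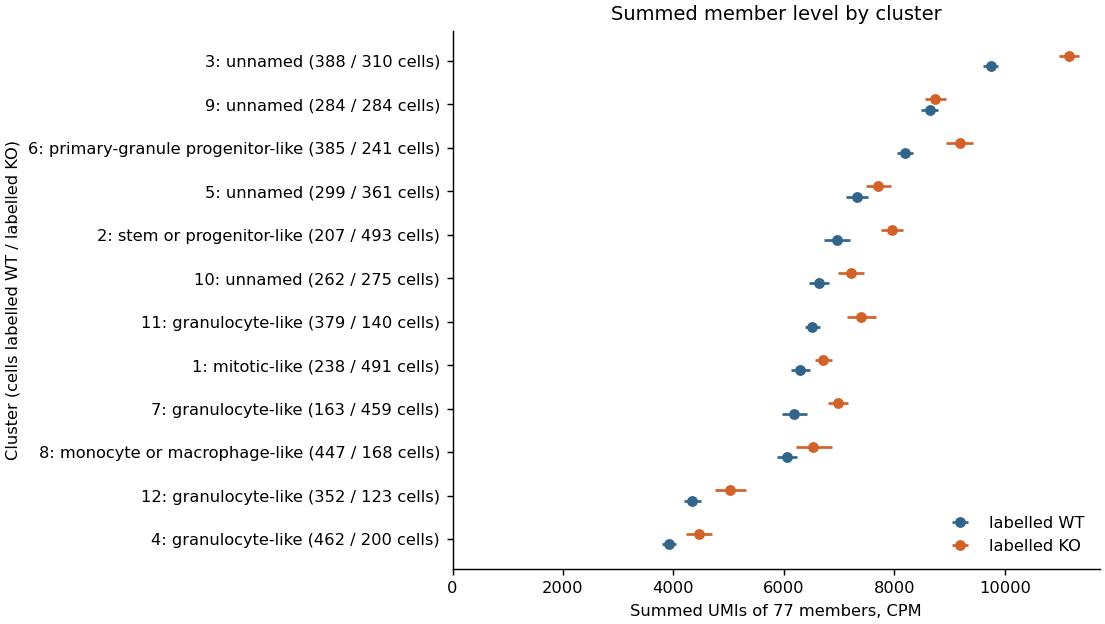
Summed CPM of the 77 members in each of 12 clusters, with 95% Poisson intervals, ordered by the level in the library labelled WT and with the cells of both libraries beside each name. Granulocyte-like cluster 4 is lowest at 3924 and 4460 CPM and cluster 3 highest at 9745 and 11159 CPM.

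The highest level was in cluster 3, led by *Mcpt8*, *Nras*, *Oaf*, *Hras* and *Fabp5*, which stayed without a name and in which 17 of 18 S phase markers were raised. It held 388 cells labelled WT at 9745 CPM and 310 labelled KO at 11159 CPM, log2 ratios of 0.54 and 0.60 to the other cells of each library. Called higher in both libraries were 52 of 74 members, beside 30.7% of all genes. In this cluster 43 members labelled WT and 41 labelled KO had their highest level over the clusters. It was also the deepest, with a median of 4627 and 3778 UMIs per cell. *Mrpl16*, at 60.9 CPM against 25.1 in other cells labelled WT and 91.4 against 24.5 labelled KO, *Mrpl38*, at 57.2 against 15.4 and 45.7 against 19.8, and *Mrpl47*, at 33.7 against 14.9 and 44.2 against 11.8, lay furthest above the other cells, and these members were chosen after their values were seen. *Mrps10*, also chosen after its values were seen, stood in this cluster at 141 CPM labelled WT and 276 CPM labelled KO.

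As a pooled class, granulocyte-like cells had the lowest levels of the named classes, but their clusters differed. Cluster 4 stood at 3924 CPM labelled WT and 4460 labelled KO and cluster 12 at 4345 and 5024. Clusters 7, at 6193 and 6986, and 11, at 6515 and 7396, lay above the monocyte or macrophage-like cluster, at 6062 and 6536. Of the 12 granulocyte markers, 11 were raised in cluster 4 and 12 in cluster 12, but 5 in cluster 7 and 6 in cluster 11. S phase markers labelled WT and KO summed to 2303 and 3267 CPM in cluster 7 and 3478 and 3197 CPM in cluster 11. They summed to 497 and 823 CPM in cluster 4 and 840 and 849 CPM in cluster 12. Granulocyte-like cells made up 1356 cells labelled WT, most in clusters 4, 11 and 12, and 922 labelled KO, with 459 in cluster 7. Their members summed to 5289 CPM against 7960 CPM in other cells labelled WT, a log2 ratio of -0.59 (-0.61 to -0.57), and to 6361 against 8508 CPM labelled KO, a log2 ratio of -0.42 (-0.45 to -0.39). All 74 members were lower labelled WT and 70 labelled KO, and the median log2 ratio of all genes was also below 0, -0.40 and -0.35. Called lower in both libraries were 49 of 74, beside 40.8% of all genes, and called higher were 0, beside 6.37%. Granulocyte-like cells devote a large part of their UMIs to a few marker genes, 25.9% and 24.03% to the 12 granulocyte markers in cluster 4. With CPM taken without the marker genes of the cell classes the log2 ratios were -0.33 and -0.20, and with 8 clusters they were -0.71 and -0.67.

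*Mrpl52*, a mitochondria-specific large-subunit protein, departed furthest in granulocyte-like cells, with 16.5 CPM against 68.8 in other cells labelled WT and 10.4 against 55.4 labelled KO, log2 ratios of -2.06 and -2.42. *Mrpl38* had log2 ratios of -1.48 and -1.44, *Mrpl47* -1.35 and -1.28, *Mrps28* -1.23 and -0.95 and *Mrpl11*, of the stalk base that binds translation factors, -1.24 and -0.77. At the other end, *Mrps18c* at -0.07 and 0.16, *Mrps21* at -0.03 and -0.14, *Mrpl45*, which joins the ribosome to the inner membrane, at -0.41 and 0.24, *Mrpl14* at -0.16 and -0.13 and *Mrpl40* at -0.35 and 0.03 stayed near the other cells.

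Primary-granule progenitor-like cells, led by *Mpo*, *Ctsg* and *Elane*, lay above the other cells, at 8192 CPM labelled WT and 9182 CPM labelled KO, log2 ratios of 0.22 and 0.21. Called higher were 14 of 74 members, beside 13.2% of all genes. Thinned, the log2 ratios were 0.37 and 0.20, with 16 clusters 0.34 and 0.29, and without class marker genes in the total 0.12 and 0.14. Monocyte or macrophage-like cells lay below, at 6062 and 6536 CPM with log2 ratios of -0.26 and -0.30, and 31 members were called lower, beside 28.5% of all genes. With 8 clusters these ratios were -0.17 and -0.20, thinned -0.17 and -0.22, and without class marker genes -0.39 and -0.42. Granulocyte markers made up 17.0% and 16.3% of the UMIs of the mitotic-like cluster, near the 17.5% and 16.2% of granulocyte-like cluster 7. The mitotic-like cluster was counted among the other cells of the granulocyte-like comparison, and the part of these markers in its level was not tested. Mitotic-like cells had log2 ratios of -0.20 and -0.29, and 21 members were called lower, beside 33.2% of all genes. This difference depended on the clusters and the total: the ratios were -0.03 (-0.06 to 0.0028) and -0.19 with 16 clusters, -0.08 and -0.22 with 8, -0.13 and -0.19 thinned and -0.05 and -0.14 without class marker genes. Cluster 9, led by *Elane*, *Ska1* and *Nkg7* and without a name because mitotic and primary-granule markers were equally frequent among its leading genes, had 19 of 21 mitotic markers raised and lay above the other cells, at 0.31 and 0.14. Stem or progenitor-like cells had ratios of -0.05 and -0.01, and the direction was not fixed: thinned they were 0.04 and 0.09, without the 5% of cells with most UMIs 0.02 and 0.09, and without class marker genes -0.19 and -0.14.

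Cycling cells were taken from the UMIs of the S phase and mitotic markers after thinning, 4 or more against 0. The 1276 cycling cells labelled WT held 7971 CPM against 5839 CPM in 1375 cells without such UMIs, a log2 ratio of 0.45, and the 1511 cycling cells labelled KO 8481 against 6766 CPM in 793 cells, a log2 ratio of 0.33. Called higher were 35 of 74 members, beside 23.3% of all genes. Without granulocyte-like clusters the log2 ratios were 0.32 and 0.19, with 24 members called higher beside 19.7% of all genes. Granulocyte markers stayed unequal in this setting. At equal depth, cells with 7 or more cell cycle UMIs held a mean of 66.8 granulocyte marker UMIs labelled WT and 84.4 labelled KO. Cells with 0 cell cycle UMIs held 11.4 and 12.1. The part of these markers in the ratios was not tested. Cycling cells were deeper, with a median of 3637.5 UMIs against 1993 labelled WT and 2405 against 1505 labelled KO. At equal depth the mean sum labelled WT was 5.55 member UMIs in cells without cell cycle UMIs, 7.85 with 4 to 6 of them and 7.45 with 7 or more, and it was 6.60, 7.82 and 7.84 labelled KO.

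Among the 5 members named at the upper end in cycling cells, *Mrpl18* had the largest ratio labelled WT and *Mrps25* labelled KO. *Mrpl18* has a bacterial counterpart of the family that binds 5S rRNA. It stood at 388 CPM against 139 labelled WT and 467 against 165 labelled KO, log2 ratios of 1.485 and 1.505. Both libraries gave nearly the same ratio, and without granulocyte-like clusters it was 1.33 and 1.45. *Mrps25* had log2 ratios of 0.87 and 1.52, *Mrpl47* 1.37 and 1.01, *Mrpl42* 1.07 and 1.15 and *Mrps22* 1.04 and 1.12. *Mrpl52* had -0.59 and -0.63, *Mrps21* -0.19 and -0.30, *Mrpl4* 0.15 and -0.50, *Mrpl43* 0.12 and -0.32 and *Mrpl24* 0.02 and -0.20. In monocyte or macrophage-like cells *Mrpl4* stood at 75.8 CPM labelled WT and 221 CPM labelled KO, and the single cell named above held 27 of its 52 UMIs labelled KO.

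The members did not share a single pattern over the cell states. The log2 level of each of the 74 members was compared with that of the sum of the others over 24 points, 12 clusters of 2 libraries, which share libraries and depth. The median Pearson correlation was 0.76. *Mrpl12*, which also binds the mitochondrial RNA polymerase, had the highest at 0.96, with 25.02 CPM labelled WT and 48.9 labelled KO in granulocyte-like cluster 4 and 244 and 273 CPM in cluster 3. *Mrps21* had the lowest at -0.21: its level was highest in cluster 4, 172 and 205 CPM, where the sum was lowest. *Mrps18c* at 0.25, *Mrpl1* at 0.29, *Mrpl14* at 0.30 and *Mrpl45* at 0.34 came next.

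*Mrpl33* and *Mrpl52* were highest in monocyte or macrophage-like cells, where the sum was low. *Mrpl33* stood there at 825 CPM labelled WT and 788 CPM labelled KO and at 300 and 388 CPM in the mitotic-like cluster. *Mrpl52* stood at 117 and 141 CPM in monocyte or macrophage-like cells, at 116 and 107 CPM in cluster 5, led by *Cd74*, and at 5.13 and 3.39 CPM, 4 UMIs in each library, in the mitotic-like cluster. The mitotic-like cluster is also rich in granulocyte markers, at 17.0% and 16.3% of its UMIs. The low values of *Mrpl52* there and in granulocyte-like clusters 11 and 12 recurred in both libraries. Cluster 3, although rich in S phase markers, held 85.5 and 99.8 CPM of *Mrpl52*. The large-subunit sum stood at 2.25 and 2.27 times the small-subunit sum in monocyte or macrophage-like cells, beside 1.59 to 2.00 in the other clusters.

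**Figure D5:**
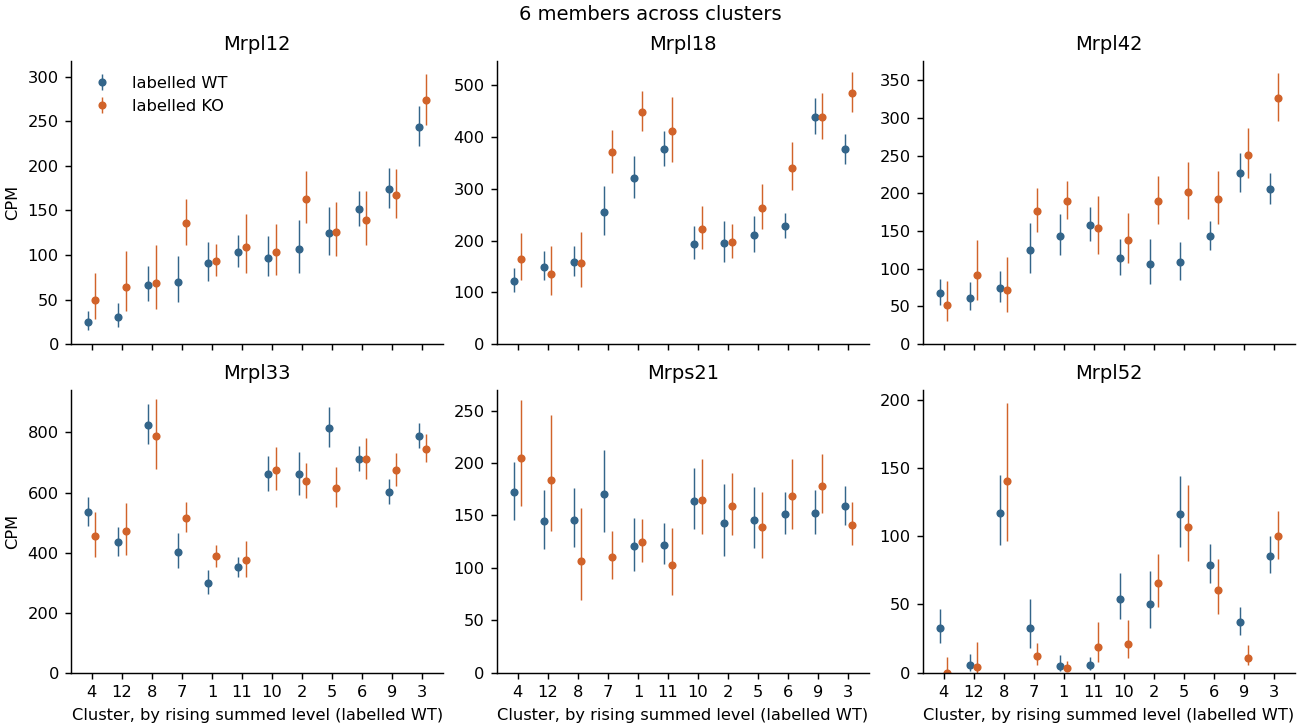
CPM of 6 members in 12 clusters with 95% Poisson intervals, with the clusters in the order of the summed level labelled WT. *Mrpl12*, *Mrpl18* and *Mrpl42* are highest toward the right, *Mrpl33* and *Mrpl52* peak in monocyte or macrophage-like cluster 8, and *Mrps21* varies little.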

How the data were processed

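Single-cell RNA-seq of 2 libraries was used, 1 per genotype. The authors ran Cell Ranger (version 1.3.1 per the labels and 2.1.1 per the study's methods, mm10) and deposited 1 table of raw UMI counts per gene and cell, with no normalization. The library of a cell was read from the barcode suffix, whose meaning comes from the code published with the study and not from the labels. Every count column was assigned, so 0 were left unused, and 28 barcodes occurred in both libraries.

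The study's lower limit of 500 detected genes per cell was applied. Counts were summed per library or cluster, scaled to CPM, and given exact Poisson intervals, and ratios were given exact binomial (Clopper-Pearson) intervals. Cells are not replicates, so no test was made. Equal depth means thinning to 1000 UMIs without replacement, which left out 66 cells labelled WT and 194 labelled KO. No doublet caller was run, and an alternative left out the 5% of cells with the most UMIs. Clusters came from k-means (12 clusters, 20 principal components, 869 variable genes without the members) and were named where 2 or more of 10 leading genes and 3 or more raised markers belonged to a class and no other class had as many leading genes. Near-identical gene copies could split reads of a member. Code was tested on simulated data.

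Named members were the 5 highest and 3 lowest by CPM, the 10 largest ratios in each direction, 5 at each end for CV, granulocyte-like and cycling cells, and the 5 highest variances over mean; of other lists, 2 in each direction, apart from an item that is not reported here. The members, lists and rule were chosen with earlier results of these data known. Positions are those of GENCODE M21, matched by Ensembl gene identifier. Python 3.11.15, numpy 2.4.6, scipy 1.17.1, pandas 2.3.3 and scikit-learn 1.9.0 were used.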

Additional observations from a re-analysis of the deposited data

Results flagged for a closer look

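Cells under the limit of 500 detected genes entered no comparison. They numbered 203 labelled WT and 695 labelled KO, with medians of 1063 and 907 UMIs. Their members summed to 887 UMIs or 3976 CPM (3718 to 4246) labelled WT and to 3141 UMIs or 4722 CPM (4558 to 4890) labelled KO. The value labelled KO lay above that labelled WT, the control library, and both lay below the levels of the kept cells. The difference was not tested.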

How the results depend on the processing

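No paired analysis was possible because each genotype had 1 library. With no replicates no sample could be left out, and the depth of the cells, lower in the library labelled KO, limits what can be said of rare members. The summed log2 ratio of 0.16 (0.14 for *Mrpl*, 0.20 for *Mrps*) kept its direction in all settings tried. With every deposited cell it was 0.12 (0.10 and 0.16), with cells of 1000 or more genes 0.24 (0.22 and 0.28), without mitochondrially encoded and cytosolic ribosomal protein genes in the total 0.11 (0.092 and 0.15), matched on total UMIs 0.28 (0.26 and 0.33) and without the 5% of cells with most UMIs 0.13 (0.12 and 0.17). With clusters weighted to the same shares it was 0.14 (*Mrps* 0.16), thinned *Mrps* gave 0.22, and cells without cell cycle UMIs, a setting chosen after seeing the data, gave 0.21. The median member ratio of 0.18 was 0.31 in matched cells. The median log2 CV ratio at own depth, 0.21, was 0.049 in cells with 1000 or more genes. At equal depth it was -0.0055, and it was -0.049 in cells with 1000 or more genes, 0.0090 without the 5% of cells with most UMIs, 0.017 with a minimum of 500 UMIs, -0.037 at 1500 UMIs and, chosen after seeing the data, -0.048 without the 10 highest cells of each gene, so its sign was not fixed. Without those cells the median log2 ratio of variance over mean, 0.14, was 0.070. Granulocyte-like cells, -0.59 labelled WT and -0.42 labelled KO, gave -0.62 and -0.53 with 16 clusters, -0.71 and -0.67 with 8, -0.56 and -0.36 thinned, -0.33 and -0.20 without class marker genes in the total and -0.54 and -0.34 without the 5% of cells with most UMIs. Cycling cells, 0.45 and 0.33, gave 0.32 and 0.19 without granulocyte-like clusters, also chosen after seeing the data. Of 128 values of 32 named members 19 changed sign, in 10 members whose main ratios were all under the called fold. The interval lay off 0 in 3 of them: *Mrpl15* at 0.21 and *Mrps5* at 0.42 in matched cells and *Mrpl33* at 0.07 in cells with 1000 or more genes. With 8 clusters no stem or progenitor-like class was found. The causes were not tested.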
